A study of Mus musculus with 2 samples.

Results

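The Mir34 and Mir449 family of the mouse comprises 6 microRNA (miRNA) genes at 3 loci, and its level was measured in the embryonic stomach. The members were taken as the genes whose Ensembl identifier, without its version, belongs to Mir34a, Mir34b, Mir34c, Mir449a, Mir449b or Mir449c in the mouse annotation. All 6 were present among the 1973 genes counted in each library. The samples were 2 stomachs of strain B6NCrl embryos at 14.5 days of development, from which total RNA was taken and small RNA below 30 nt was sequenced. Replicates 2 and 1 are described as biological replicates, each a single stomach taken on its own day, and neither a treatment nor an altered genotype is named for them. The labels number the pup and its mother alike in both samples, although the days differ. They give the sex of each as both male and female together, which leaves it unclear whether RNA of several embryos was combined. With 1 group, no conditions could be compared, and the tests set the libraries against each other.

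The miRNAs of this family share the short stretch, called the seed, through which a miRNA recognises its target messenger RNAs. Mir34a is known as a target of the transcription factor p53, and its miRNA lowers proteins that drive the cell cycle. Mir34b, Mir34c and the Mir449 genes are known above all from multiciliated epithelia and male germ cells, where the loci act redundantly in the formation of motile cilia in the mouse.

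The mature sequences are shown because the seed defines the family and because they bear on how far reads can be told apart. RefSeq (GRCm38.p6) gave 9 mature sequences for 5 of the 6 genes. It gave no miR-34c-5p and no sequence of Mir449b, so these could be neither shown nor searched for the seed. The seed, bases 2 to 8 from the 5′ end, is in capitals. The 5′ arms were these.
mmu-miR-34a-5p: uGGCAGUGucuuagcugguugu
mmu-miR-34b-5p: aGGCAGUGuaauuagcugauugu
mmu-miR-449a-5p: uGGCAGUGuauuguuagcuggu
mmu-miR-449c-5p: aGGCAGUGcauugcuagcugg
All 4 carried the same seed, GGCAGUG. Among the 1738 mature mouse miRNAs of that table, which lacks miR-34c-5p and Mir449b, these 4 were the ones with it at bases 2 to 8. The heptamer also occurred once in each of the 5 family precursors of the table, Mir34c included, and in 17 of all 1005 precursors (1.69%). Beyond the seed the likeness of the arms varied. Counted from the 5′ end without gaps, miR-449a-5p and miR-449c-5p, the latter 21 nt long, matched at 18 positions. By the same count, miR-34a-5p and miR-449a-5p matched at 15, and miR-34b-5p matched miR-449a-5p and miR-449c-5p at 10 each.

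The 3′ arms did not share 1 seed.
mmu-miR-34a-3p: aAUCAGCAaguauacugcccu
mmu-miR-34b-3p: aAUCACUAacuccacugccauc
mmu-miR-34c-3p: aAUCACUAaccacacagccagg
mmu-miR-449a-3p: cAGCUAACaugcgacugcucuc
mmu-miR-449c-3p: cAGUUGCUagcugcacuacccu
miR-34b-3p and miR-34c-3p had the seed AUCACUA in common, and the other 3 had a seed each. The counts are given per gene and do not separate the arms. The longest stretch that any of the 5 precursors shared with another precursor of the table was 14 nt, for Mir449a, and 11 nt for each of the other 4. Both are shorter than a mature miRNA. These are exact stretches, and how reads with mismatches were placed is not known. The 3′ arms of Mir34b and Mir34c matched at 17 positions from the 5′ end, with a longest shared stretch of 10 nt. How closely their 5′ arms match was not assessed. Mir449b is missing from that table, so what it shares with Mir449a or any other precursor was not assessed.

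On GRCm38 (mm10), Mir34a (ENSMUSG00000065493.1) lies at chr4:150068454-150068555 on the plus strand, and 17 nt of it overlap the unclassified transcript Gm37795 of the same strand. Mir34b (ENSMUSG00000065492.1, chr9:51103562-51103645) and Mir34c (ENSMUSG00000065587.1, chr9:51103034-51103110) lie on the minus strand with 451 nt between them. Both fall in an intron of 1 of the 5 annotated transcripts of Btg4, a gene of the opposite strand, and the other 4 do not reach them. Mir449c (ENSMUSG00000076146.1, chr13:113035983-113036091), Mir449b (ENSMUSG00000078027.1, chr13:113037419-113037498) and Mir449a (ENSMUSG00000065575.1, chr13:113037534-113037624) follow each other on the plus strand. They lie between exons 2 and 3 of Cdc20b, a gene of the same strand. The gap is 1327 nt between Mir449c and Mir449b and 35 nt between Mir449b and Mir449a.

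The depth was 4679914 gene counts for replicate 2 and 5004548 for replicate 1, and levels are counts per 1000000 gene counts (CPM). Detection required at least 10 counts per library, which 361 genes reached. Where a gene had 0 counts, up to 3 counts remain possible, which is 0.641 CPM for replicate 2 and 0.599 CPM for replicate 1. Intervals and floors describe counting error only, since the reads have no molecular identifiers. All 5 epithelial miRNAs of the Mir200 family were detected, and the lists used hold no miRNA that marks the stomach alone.

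Mir34c led the family, Mir34a followed, Mir449a and Mir34b were lower, and Mir449b and Mir449c were at the limit of counting. The family as a whole had 2982 counts in replicate 2 and 2995 in replicate 1, or 618 ± 27.4 CPM (SD, n = 2), which is 0.0618% of all gene counts. In whole tissue, a low level in all cells and a higher level in few cells cannot be told apart.

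Mir34c had 1964 counts in replicate 2 and 1901 in replicate 1. The level of Mir34c was 419.7 CPM (95% exact Poisson interval 401 to 439) in replicate 2 and 379.9 CPM (363 to 397) in replicate 1, a mean of 399.8 ± 28.2 CPM. The intervals did not overlap, and replicate 2 was the higher library. Mir34c was at rank 141 of the 1973 genes, of which 361 were detected and 1251 had 0 counts in both libraries.

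Mir34a had 667 counts in replicate 2 and 710 in replicate 1, or 143 CPM (132 to 154) in replicate 2 and 142 CPM (132 to 153) in replicate 1. Its mean was 142 ± 0.46 CPM. The libraries were nearly equal in this gene, which was at rank 179.

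Mir449a, the member nearest the 3′ end of its locus, had 252 counts in replicate 2 and 297 in replicate 1. These are 53.8 CPM (47.4 to 60.9) in replicate 2 and 59.3 CPM (52.8 to 66.5) in replicate 1. The mean was 56.6 ± 3.89 CPM, at rank 227. The intervals overlapped.

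Mir34b had 98 counts in replicate 2 and 85 in replicate 1. In CPM this was 20.9 (17.0 to 25.5) for replicate 2 and 17.0 (13.6 to 21.0) for replicate 1, and the mean of 19.0 ± 2.80 CPM was at rank 273. The intervals overlapped here too.

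Mir449b had 1 count in each library. Mir449c had 0 counts in replicate 2 and 1 in replicate 1. Both were below the floor of 3 counts, so their order could not be read and neither was shown to be present or absent.

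Between the 4 detected members, the steps in level were larger than the spread between the libraries. Mir34c exceeded Mir34a 2.94-fold in replicate 2 and 2.68-fold in replicate 1. Mir34a exceeded Mir449a 2.65-fold in replicate 2 and 2.39-fold in replicate 1, and Mir449a exceeded Mir34b 2.57-fold in replicate 2 and 3.49-fold in replicate 1. The order was the same in both libraries. Reads of this size span most of a mature miRNA, so counts were not divided by length. With division by the annotated precursor length the order was unchanged, at 519, 139, 62.2 and 22.6 CPM per 100 nt for Mir34c, Mir34a, Mir449a and Mir34b. With 2 libraries no exact test over samples can pass a threshold, and ratios between different miRNAs also hold errors of library preparation that both libraries share.

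**Figure D1:**
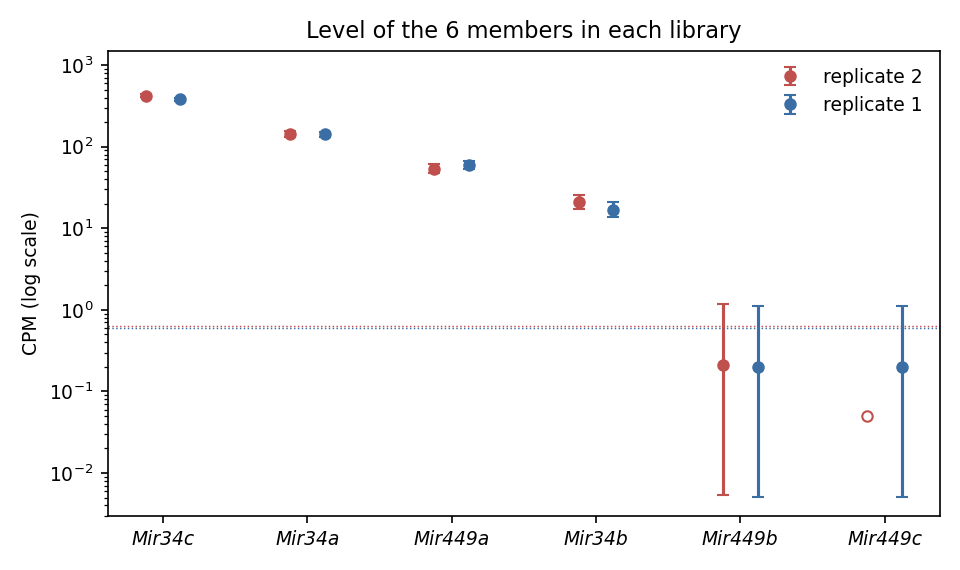
Level of each member in CPM (log axis) in replicate 2 (red) and replicate 1 (blue), with 95% exact Poisson intervals. The dotted lines mark 3 counts in each library, and the open circle stands for the 0 counts of Mir449c in replicate 2, drawn at an arbitrary height. Mir34c lies highest, at 419.7 CPM in replicate 2 and 379.9 CPM in replicate 1, and Mir449b and Mir449c lie below the dotted lines.

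Within the family, Mir34c held most of the counts. Its share of the summed family counts was 65.9% (95% exact binomial interval 64.1 to 67.6) in replicate 2 and 63.5% (61.7 to 65.2) in replicate 1. Mir34a held 22.4% (20.9 to 23.9) in replicate 2 and 23.7% (22.2 to 25.3) in replicate 1. Mir449a held 8.45% in replicate 2 and 9.92% in replicate 1, and Mir34b 3.29% in replicate 2 and 2.84% in replicate 1. By locus, Mir34b/c held 67.7% ± 2.01 and Mir449 held 9.23% ± 1.06 (SD, n = 2).

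Neighbours on the same locus differed widely in level. Mir34c exceeded Mir34b 20.04-fold (95% interval 16.4 to 24.8) in replicate 2 and 22.4-fold (18.0 to 28.1) in replicate 1. At the Mir449 locus the ratio of Mir449a over Mir449b was 252 (44.8 to 9992) in replicate 2 and 297 (52.9 to 11770) in replicate 1. Each interval is wide because the denominator is 1 count. Whether Mir449b lost reads that map to several places was not assessed. Against Mir449c, with 0 counts in replicate 2, Mir449a was at least 84.0-fold higher there when Mir449c is set at the floor of 3 counts. The 95% exact interval of that ratio, which also holds the counting error of Mir449a, began at 67.8. In replicate 1 that ratio was 297 (52.9 to 11770).

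**Figure D2:**
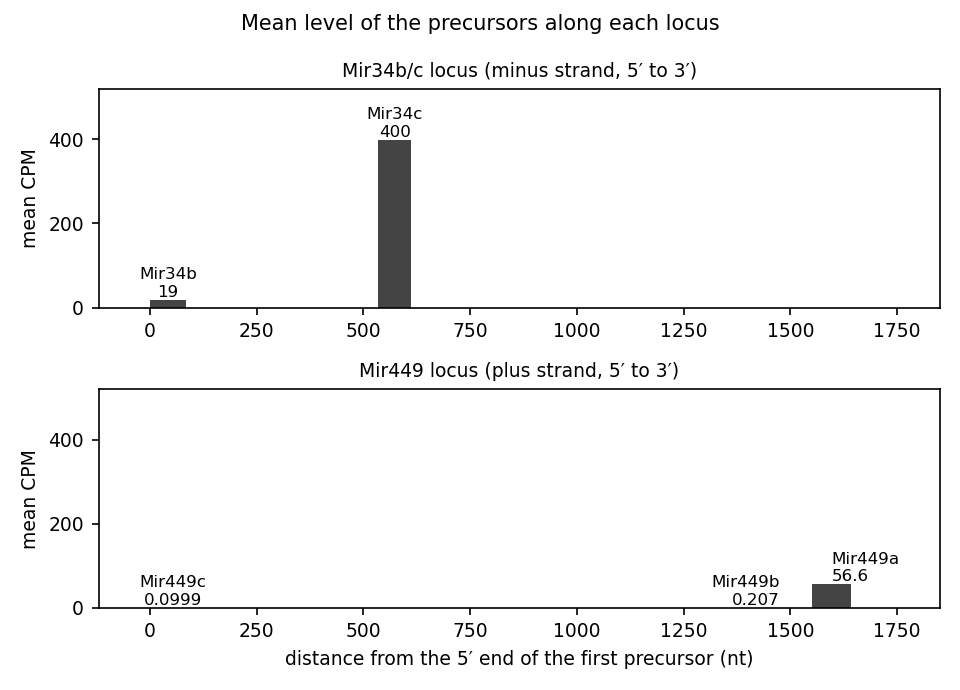
Mean CPM (n = 2 libraries) of each precursor along the Mir34b/c and Mir449 loci, against the distance in nt from the 5′ end of the first precursor. Each bar is as wide as its precursor. Mir34c stands at 399.8 CPM beside Mir34b at 19.0 CPM, and Mir449a at 56.6 CPM beside Mir449b and Mir449c, whose bars are too low to be seen.

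Unequal neighbours were common among the other miRNA genes of these libraries. Of 97 pairs of detected genes adjacent on the same strand with starts within 10 kb, the median log2 ratio of the higher over the lower mean level was 2.85, or 7.20-fold. The range ran from 0.10 for Mir93 over Mir106b to 10.96 for Mir411 over Mir1197. Mir34c over Mir34b stood at 4.40, with 28 of the 97 pairs more unequal. Mir449a and Mir449b were not among these pairs, since Mir449b was not detected. With 1 count in each library, below the floor, Mir449b gives no ratio with an exact place among them. By counting error alone, the lower limits of Mir449a over Mir449b were 44.8 in replicate 2 and 52.9 in replicate 1. Both were above the median of 7.20-fold. Reads that map to several places are counted for no gene, which lowers any neighbour with copies elsewhere.

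**Figure D3:**
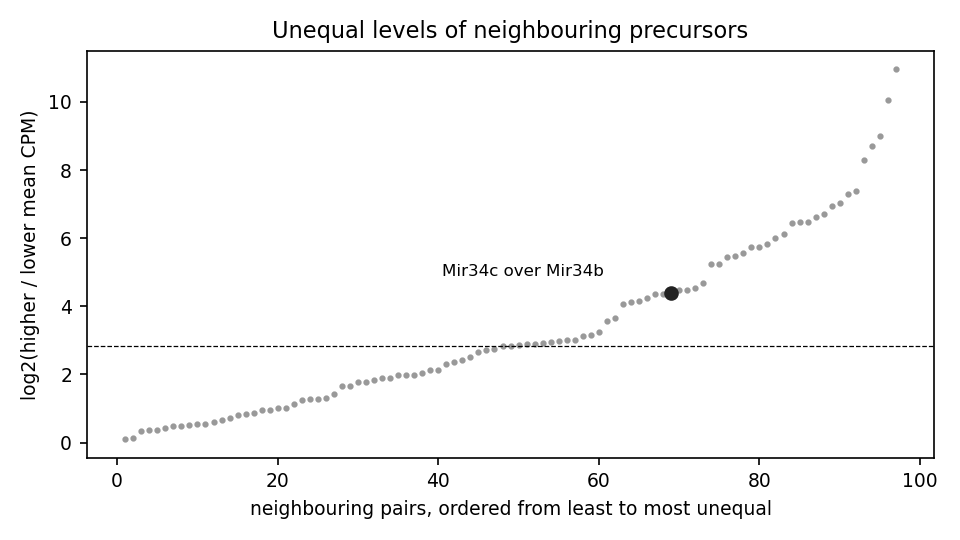
Log2 ratio of the higher over the lower mean CPM for 97 pairs of neighbouring detected miRNA genes, ordered from least to most unequal. The dashed line is the median, 2.85, and the black point is Mir34c over Mir34b, at 4.40, above the median and below 28 other pairs.

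The composition of the family was then compared between the libraries by ratios within each library, which do not depend on scaling. The Mir34b/c locus exceeded Mir34a 3.09-fold (2.83 to 3.38) in replicate 2 and 2.80-fold (2.57 to 3.05) in replicate 1. It exceeded the Mir449 locus 8.15-fold (7.15 to 9.32) in replicate 2 and 6.64-fold (5.88 to 7.53) in replicate 1. Mir34a exceeded the Mir449 locus 2.64-fold in replicate 2 and 2.37-fold in replicate 1. Of 5 ratios that could be tested, 1 had an unadjusted p under 0.05 in a two-sided Fisher's exact test and none an adjusted p under it. That ratio was Mir34b/c over Mir449, with p = 0.0262 and, adjusted over the 5, p = 0.131 by Fisher's exact test. For Mir34c over Mir34b the exact test gave an adjusted p of 0.620. Mir449a over Mir449b was also among the 5, but with 1 count of Mir449b in each library its test could show little. These tests compare 2 libraries and not conditions.

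Each member was also compared between the libraries by its CPM, in a two-sided exact conditional binomial test adjusted over all 361 detected genes by the Benjamini-Hochberg method. At the thresholds used, which were 0.05 for the adjusted p and a log2 ratio of at least 1 in either direction, 0 of the 4 tested members differed, against 1.11% of all detected genes. By unadjusted p under 0.05, 1 member did, against 49.3% of all detected genes. By adjusted p alone, 1 of the 4 differed and was higher in replicate 2, against 42.1% of all detected genes in either direction and 24.7% higher in replicate 2. This was Mir34c, with a log2 ratio of replicate 2 over replicate 1 of 0.14 (95% interval 0.05 to 0.24, adjusted p = 0.00568 in the exact binomial test). That call was lost under other scalings, with adjusted p-values of 0.101, 0.393 and 0.0866 in the same exact test with TMM factors, size factors and totals without the 5 most abundant genes.

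For the other members the log2 ratio was 0.01 (-0.15 to 0.16) for Mir34a, 0.30 (-0.13 to 0.74) for Mir34b and -0.14 (-0.39 to 0.11) for Mir449a. Their adjusted p-values in the exact binomial test were 0.976, 0.276 and 0.402. The sign for Mir34a turned with every one of the 3 other scalings. Mir34b, with under 100 counts in each library, had the widest interval of the 4, which held 0 and reached 0.74. The median log2 ratio of the 4 members was 0.08, beside 0.04 over all detected genes.

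**Figure D4:**
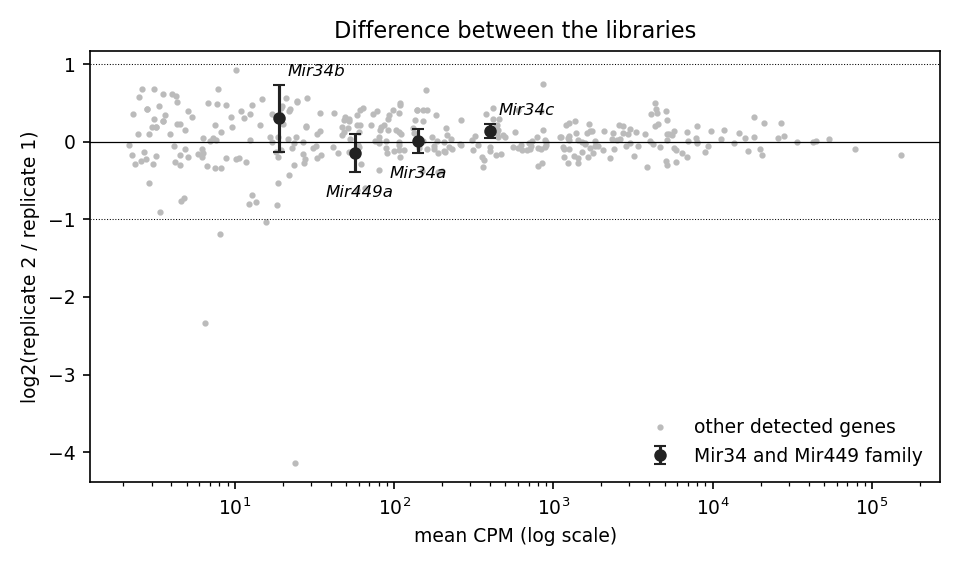
Log2 ratio of replicate 2 over replicate 1 against mean CPM (log axis) for the 361 detected genes, with the 4 detected members in black and their 95% exact intervals. The dotted lines mark a log2 ratio of 1 in either direction. The members lie between -0.14 and 0.30, and the interval of Mir34c, 0.05 to 0.24, is the sole one of the 4 that leaves out 0.

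The counts of the detected members lay almost wholly in the column read as their annotated strand. That column held 97.3% of all gene counts in replicate 2 and 97.2% in replicate 1. The columns have no names and this reading came from the values, so orientation itself was not tested. In both libraries the opposite strand held 0 counts for Mir34a, Mir34c and Mir449a. For Mir34c, 0 of 1964 counts in replicate 2 and 0 of 1901 in replicate 1 allow a share of up to 0.153% in replicate 2 and 0.158% in replicate 1 by the floor of 3 counts. The 95% exact binomial upper limits were 0.188% and 0.194%. Mir34b had 2 of 98 counts on the opposite strand in replicate 2, or 2.04% (95% exact binomial upper limit 7.18%), and 0 of 85 in replicate 1, with an upper limit of 4.25% by the same method and 3.53% by the floor of 3 counts. Reads of the Btg4 transcript that crosses Mir34b and Mir34c on the other strand would fall in these opposite-strand counts.

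The family was set beside the Mir200 family, miRNAs known to maintain the epithelial state, since Mir34 and Mir449 miRNAs are best known from epithelia. The Mir200 family, Mir200a, Mir200b, Mir200c, Mir141 and Mir429, exceeded the Mir34 and Mir449 family 65.1-fold in replicate 2 and 69.2-fold in replicate 1, a mean log2 ratio of 6.07 ± 0.06 (SD, n = 2). Its lowest member, Mir200a at 1110.0 ± 31.2 CPM, was above Mir34c. The members named as multiciliated cell markers, which are all but Mir34a, totalled 495 CPM in replicate 2 and 457 CPM in replicate 1. Of these 5, 3 were detected, with Mir449b and Mir449c at or near 0.

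**Figure D5:**
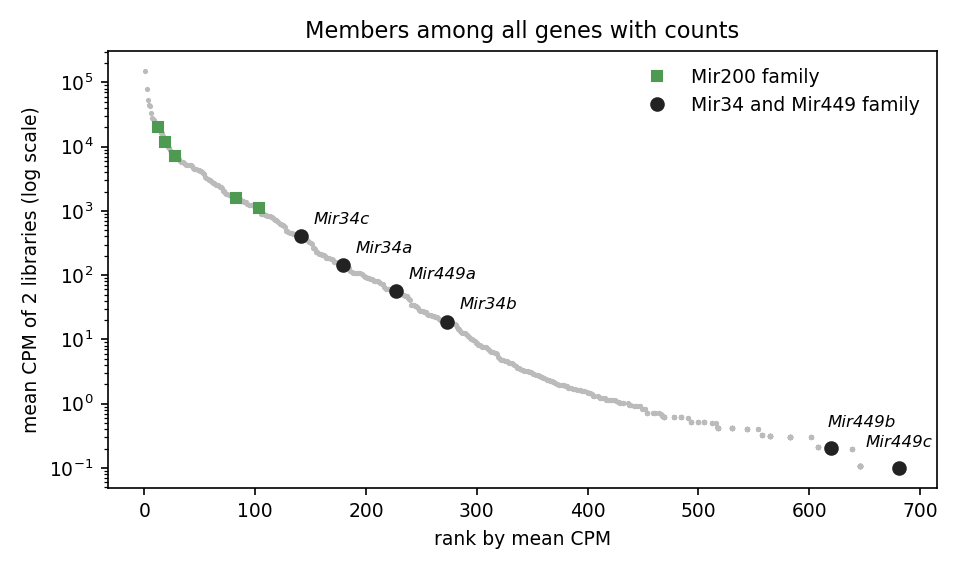
Mean CPM (log axis) against rank for all genes with counts (grey), with the 6 members in black and the 5 Mir200 genes as green squares. The squares lie between 1110.0 and 19907 CPM, above Mir34c at 399.8 CPM.

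Markers of other cell types that the organ could hold had these totals. The neural list reached 1984 CPM in replicate 2 and 1785 CPM in replicate 1, most of it from Mir137 at 1832 CPM in replicate 2 and 1669 CPM in replicate 1. Of its 8 genes 3 were detected, and both libraries had 0 counts of Mir9-2, Mir124a-1 and Mir124a-2. The leukocyte list, with 3 of 3 detected, reached 598 CPM in replicate 2 and 560.1 CPM in replicate 1, mainly from Mir223. The erythroid list, also with 3 of 3 detected, reached 218 CPM in replicate 2 and 151 CPM in replicate 1, mainly from Mir451a at 194 CPM in replicate 2 and 122 CPM in replicate 1. The striated muscle list reached 13.0 CPM in replicate 2 and 18.2 CPM in replicate 1, where 2 of 5 were detected and Mir133a-1 and Mir133a-2 had 0 counts in both. Reads that map to several places are counted for no gene, and whether the genes of these lists have copies elsewhere was not assessed. A low total or 0 counts in the neural and striated muscle lists thus do not show that a miRNA was absent. The liver miRNA Mir122 had 65.8 CPM in replicate 2 and 56.7 CPM in replicate 1. The neural, leukocyte, erythroid and liver totals were higher in replicate 2, as was Mir34c, and the striated muscle total was lower. Of the 361 detected genes, 206 had a log2 ratio above 0 and 155 had one below 0. Among the detected genes of the lists of higher total, Mir144 and Mir150 went the other way, with log2 ratios of -0.42 and -0.26. Neither passed the exact binomial test (adjusted p = 0.0853 and 0.488). Nor did Mir223, Mir486 and Mir122 pass the exact binomial test (adjusted p = 0.229, 0.413 and 0.147). The part of these cell types in the ratio of Mir34c was not tested.

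Mir34a, Mir34b and Mir34c were also set among miRNAs whose transcription or processing is known to respond to p53. Of 18 listed, 17 were counted and 16 detected. By adjusted p of the exact binomial test alone, 8 of the 16 differed between the libraries, 4 higher in replicate 2 and 4 higher in replicate 1, against 24.7% and 17.5% of all detected genes, and 0 passed the fold threshold as well, against 1.11%. The median log2 ratio of the 16 was -0.04, beside 0.04 over all detected genes.

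In level, Mir34c lay next to Mir194-2 (398 ± 14.1 CPM), from which it did not differ beyond the spread, and below Mir192 (801 ± 124 CPM), both known from intestine. Mir34a lay between Mir215 (200.2 ± 37.1 CPM), a relative of Mir192, and Mir29c (59.8 ± 1.84 CPM). Mir34b was the lowest of the 16, below Mir194-1 (34.9 ± 2.87 CPM). The top of the list was Mir143, a miRNA of smooth muscle and mesenchyme, at 152490.3 ± 12395 CPM, and Mir29b-1, with 2 counts in replicate 2 and 7 in replicate 1, was not detected. Mir605 is not among the genes counted here. The precursors of Mir107, Mir16-1, Mir194-1, Mir194-2, Mir29b-1 and Mir29c share 20 nt or more with another precursor of the table, so their levels are uncertain. Mir34a, Mir34b and Mir34c share no such stretch, and the sharing of Mir143, Mir145a and Mir15a was not assessed.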

How the data were processed

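Per the text that accompanies the deposited files, the authors made 1 table of gene counts per library from an alignment to mm10 with GENCODE M4. The aligner is not given in the sources used here, nor is the counting program. The deposited counts fill 3 columns without names. From the values, the last 2 columns separate the strands and add up to the first, which was used. Which of these 2 holds the annotated strand was also read from the values. Lines that name no gene were left out of totals: reads mapping to several places were 27.4% of all reads in replicate 2 and 27.8% in replicate 1, unmapped reads 13.5% and 12.5%, reads outside genes 2.32% and 2.50%, and ambiguous reads 0.

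Symbols and coordinates came from GENCODE M21 on the same assembly, which matched 1894 of 1973 identifiers. The family members and the lists were chosen with earlier results of these data known. Genes named beside the members follow a rule on list membership, rank and extreme pairs. Exact tests, intervals and Benjamini-Hochberg adjustment used scipy 1.17.1. edgeR 4.0.16 (TMM) and DESeq2 1.42.0 (size factors) supplied other scalings. A quasi-likelihood test could not be fitted, for want of a contrast within 1 group. The library test was tested on simulated data that held counting error alone. That simulation cannot show how the test behaves under the spread between these libraries. The p-values of the exact tests weigh counting error alone and hold no estimate of the spread between samples. Across the 361 detected genes a chi-square per degree of freedom of 75.8 separated the libraries, so they were not 1 library deposited in duplicate. Alternatives were the scaling, the strand, the count minimum, each replicate left out, the denominator and the distance between pairs.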

Additional observations from a re-analysis of the deposited data

How the results depend on the processing

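No member passed both thresholds under any of the 5 alternatives of scaling, strand and count minimum. The number of members with an adjusted p under 0.05 was 1 and became 0 with TMM factors, 0 with size factors and 0 when the 5 most abundant genes were left out of the totals, while that of all detected genes was 152 and became 168, 173 and 166. These scalings shift every log2 ratio by -0.05, -0.09 and -0.05, and the log2 ratio of Mir34a became -0.046, -0.084 and -0.042. With a minimum of 1 count, 7 genes of all those tested differed, against 4. With reads that map to several places added to the denominator, the family level was 416 CPM, and by construction every level fell by a similar proportion. Own-strand counts gave Mir34a 146 CPM. Per nucleotide of precursor length, an alternative chosen after seeing the data, Mir34c exceeded Mir34b 23.1-fold, and Mir449a exceeded Mir449b 241-fold, on a denominator of 1 count per library. Leaving out either replicate gives the level of the other, from 598 to 637 CPM for the family, and with 2 libraries cannot show stability. No paired analysis was possible because there is 1 group. Depth limits Mir449b and Mir449c, with at most 1 count, and the ratio of Mir34b between libraries.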

Other observations

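The genes next to each detected member in mean level, found by rank alone, were these. Mir669l (404 ± 20.3 CPM) stood just above Mir34c and Mir543 (399 ± 22.1 CPM) just below it. Mir34a fell between Mir574 (143 ± 5.50 CPM) and Mir135b (139.7 ± 28.2 CPM). Mir449a fell between Mir30c-1 (58.2 ± 6.26 CPM) and Mir877 (52.6 ± 0.89 CPM). Mir34b fell between Mir19b-1 (19.2 ± 3.39 CPM) and Mir466n (18.8 ± 0.60 CPM). The values of these neighbours overlapped those of the member in the 2 libraries, except for Mir877, which was below Mir449a in both.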
